A study of Homo sapiens with 6 samples.

Results

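The genes described here are the epidermal growth factor (EGF) receptor family and its ligands, taken as 10 listed symbols: the receptors EGFR, ERBB2 and ERBB3, the ligands AREG, EREG, HBEGF, TGFA, BTC and NRG1, and the inhibitor ERRFI1. They were looked up by symbol among the 24108 rows of an RNA-seq table, and all 10 were found, in 11 rows. The cells were MDA-MB-231, an established basal, triple-negative breast cancer line. The 3 shCtr samples were transduced with an LKO lentivirus that carries a short hairpin against luciferase, and the 3 shZNF148 samples with a lentivirus that carries a hairpin against ZNF148, a zinc finger transcription factor that binds GC-rich DNA. Both groups were transduced for 48 h and then selected for 24 h in 0.5 µg/ml puromycin, and total RNA was sequenced. There was 1 hairpin against ZNF148, so the response to that hairpin and the response to ZNF148 loss cannot be told apart.

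EGF-family ligands are made as membrane proteins and are cut free by metalloproteases, after which they act on the cell that made them or on its neighbours. They bind EGFR, ERBB3 or ERBB4, and the receptors then pair, often with ERBB2, which has no ligand of its own. ERBB3 has little kinase activity and signals through its partners, chiefly to phosphoinositide 3-kinase, while EGFR signals strongly through RAS and MAP kinases. ERRFI1 (MIG6) is induced by the pathway and binds the active kinase domain to shut it off. EGFR is a common feature of basal-like breast cancers, and HER2, the product of ERBB2, is by definition not overexpressed in triple-negative ones.

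Values are FPKM, fragments scaled to transcript length and library size, so that levels of different genes can be set side by side per length. ZNF148 stood at 3.72, 4.36 and 4.30 FPKM in shCtr and at 0.914, 0.282 and 0.834 FPKM in shZNF148, so 16.4% of the control level was left. The number of reads behind the values is unknown. Steps between low values put the samples at 0.805 to 1.13 times the depth of shCtr replicate 1. All FPKM values of a sample added up to between 497730 and 507312 in shCtr and to between 469594 and 488173 in shZNF148. Scaling to equal totals was not among the alternatives run. Of the markers written down for this line, VIM was between 1507 and 1842 FPKM in all samples, while SPARC was below the limit for testing. Among luminal markers, ESR1 was listed at 0 in every sample, CDH1 stayed at or below 0.491 FPKM, and PGR and FOXA1 were also too low to test. In contrast, CLDN4 was between 92.9 and 153 FPKM. EPCAM was between 8.0 and 11.1 FPKM, GATA3 between 7.53 and 9.24 FPKM and CLDN3 between 1.04 and 4.92 FPKM. KRT19 shared its row with the basal keratin KRT17 and could not be read on its own. Of 8 markers of leukocytes, endothelium and fibroblasts, 6 were too low to test, with PTPRC at or below 0.115 FPKM. DCN, another of these 6, was listed at 2.82 FPKM in shCtr replicate 2 and at 0 in the other samples. CD68, which is also a lysosomal protein, fell from between 110 and 128 FPKM in shCtr to between 72.8 and 86.1 FPKM in shZNF148 (adjusted p = 0.0233 from limma), and COL1A1 did not pass. All 7 tested markers of the line had log2 fold changes below 0. An adjusted p under 0.05 was reached by 2 of them, while 8.13% of all tested rows were lower at that threshold. The part of these markers in the results was not tested. In bulk RNA, fewer cells that express a gene and less RNA of it in each cell cannot be told apart. The labels call the replicates repeats without saying that they are separate cultures, so p-values measure the spread between these samples, which may be technical.

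A change was tested on log2(FPKM + 1) with limma over the 11777 rows whose mean reached 1 FPKM. A gene was called when its adjusted p was under 0.05 and its change was over 1.5-fold, which is 0.58 on the log2 scale. Of the 10 genes, 8 could be tested, and AREG and BTC were too low. In shZNF148, the receptor EGFR was called lower and the ligand EREG was called higher. HBEGF rose and ERRFI1 fell with an adjusted p under 0.05, but by less than 1.5-fold. ERBB3, TGFA and NRG1 did not pass, and ERBB2 shared its row with a microRNA gene and could not be read on its own. Over all tested rows, 1.83% were called higher and 3.66% lower, and with the adjusted p alone 5.46% were higher and 8.13% lower. The 2 groups did not overlap in 5 of the 8 tested genes, 2 with shZNF148 above and 3 with shZNF148 below. Among all tested rows 20.0% lay above and 21.0% below in this way.

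**Figure D1:**
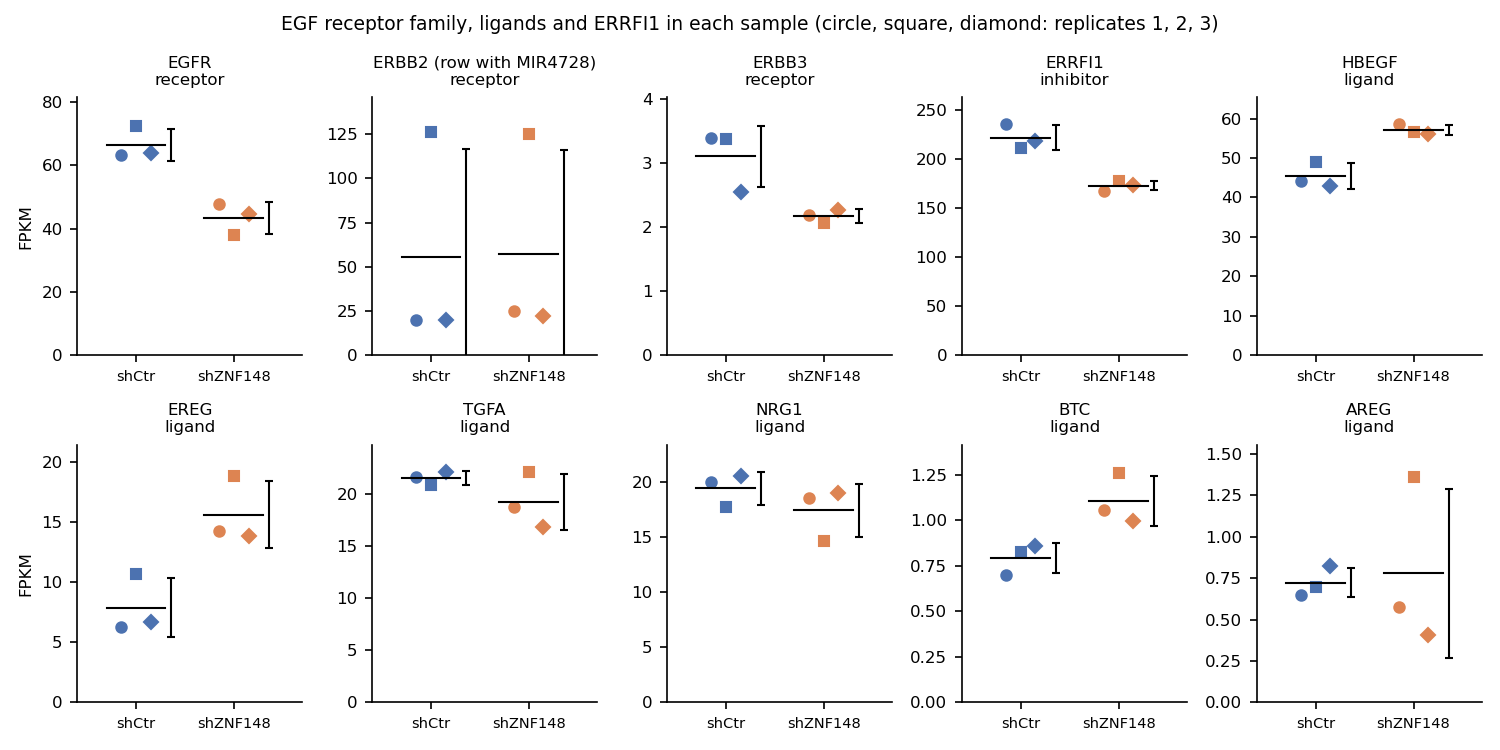
FPKM of each of the 10 genes in the 3 shCtr and 3 shZNF148 samples, with circles, squares and diamonds for replicates 1, 2 and 3, a line at the mean and a bar of 1 SD to each side (n = 3 per group); each panel starts at 0 and has its own scale. EGFR, ERBB3 and ERRFI1 lie lower and EREG, HBEGF and BTC lie higher in all shZNF148 samples, and the row of ERBB2 is high in replicate 2 of both groups.

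The promoters of the genes that were called are shown because ZNF148 is known to bind runs of G or C. Each window holds 250 bases before and 50 bases after a transcription start in RefSeq, on GRCh38.p14, and is written 5′ to 3′ on the gene's own strand. Capitals mark the 7-base word CCCTCCC or its reverse complement GGGAGGG, a choice made here to stand for such runs, and no other motif was searched. The EGFR window, chr7:55018767-55019066 on the plus strand, has a GC content of 75.3% and 1 copy, and a second annotated start of EGFR has a window with 42.0% GC and 0 copies. The EREG window, chr4:74364895-74365194 on the plus strand, has a GC content of 57.7% and 2 copies.
EGFR promoter: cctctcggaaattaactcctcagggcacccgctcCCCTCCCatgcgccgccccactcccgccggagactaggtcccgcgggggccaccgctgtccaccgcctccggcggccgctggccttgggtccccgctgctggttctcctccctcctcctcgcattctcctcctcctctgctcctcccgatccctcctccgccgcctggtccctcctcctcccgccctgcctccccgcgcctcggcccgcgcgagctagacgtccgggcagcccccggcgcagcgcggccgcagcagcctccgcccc
EREG promoter: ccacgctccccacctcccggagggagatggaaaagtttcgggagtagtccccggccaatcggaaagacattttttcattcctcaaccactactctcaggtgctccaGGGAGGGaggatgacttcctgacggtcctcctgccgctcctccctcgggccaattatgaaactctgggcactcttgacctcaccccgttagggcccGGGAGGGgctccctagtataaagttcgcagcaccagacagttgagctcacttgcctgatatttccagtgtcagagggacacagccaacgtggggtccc

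Of 35116 promoter windows of the same length, 26.6% hold the word at least 1 time and 7.77% hold it at least 2 times. Their median GC content is 58.7%, and windows of like GC content were not compared. These shares count windows and not genes, and a gene can have several windows. Windows were found for 8 of the 10 genes. The word occurred 2 times in 1 window of TGFA, 0 times in its second window and 1 time each in those of HBEGF, AREG and BTC. It occurred 0 times in the window of ERRFI1 and in the only window listed for ERBB2, chr17:39687844-39688143. Whether the canonical ERBB2 transcript starts there was not checked, and other starts of ERBB2 were not searched. So the called receptor, in 1 of its windows, and the called ligand hold it. So do TGFA and HBEGF, which were not called, and AREG and BTC, which were too low for the main comparison. A match in these letters is a description of the sequence and is not a measured binding site. The paper mapped sites of biotin-tagged ZNF148 on the chromatin of MDA-MB-231 cells, and those sites were not looked up here.

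EGFR, the receptor for most of the ligands here, lies on chromosome 7 of GRCh38 from 55019017 to 55211628. It was at 63.2, 72.4 and 64.1 FPKM in shCtr replicates 1, 2 and 3. In the same order, shZNF148 samples were at 47.8, 38.0 and 44.6 FPKM. Every shZNF148 sample was below every shCtr sample. The mean fell from 66.6 ± 5.05 to 43.5 ± 4.97 FPKM (SD, n = 3 each), to 65.3% of the control. The log2 fold change was -0.61 (standard error 0.10, 95% interval -0.85 to -0.37, adjusted p = 0.0200 from limma). The exact permutation p, two-sided, was 0.1, and 3 samples against 3 cannot go lower. The change is close to the 1.5-fold limit, and replicate 2 was the highest shCtr and the lowest shZNF148 sample. EGFR was below the 1.5-fold limit without shZNF148 replicate 2 (-0.52, adjusted p = 0.0177). Without shCtr replicate 1, 2 or 3 the log2 fold change was -0.64, -0.55 or -0.63, with adjusted p-values of 0.0895, 0.0640 and 0.0851 from limma.

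ERBB3, the receptor of neuregulins, lies on chromosome 12 from 56076799 to 56103505 and was far less abundant. It was at 3.39, 3.37 and 2.55 FPKM in shCtr and at 2.19, 2.06 and 2.27 FPKM in shZNF148. The groups did not overlap, although shCtr replicate 3 was close to the knockdown samples. The log2 fold change was -0.36 (95% interval -0.65 to -0.08), with an adjusted p of 0.0897 from limma, over the threshold. The FPKM of EGFR was 18.6 to 25.1 times that of ERBB3 in shCtr and 18.4 to 21.8 times in shZNF148, so the ratio of these receptors overlapped between the groups. ERBB4, the remaining receptor of the family, was listed at 0.0192 FPKM in shCtr replicate 1 and at 0 in the other samples.

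ERBB2 encodes HER2, the partner that the other receptors prefer, and lies on chromosome 17 from 39687914 to 39730426. Its row in the table is joined with the microRNA gene MIR4728. The row was at 20.1, 126 and 20.1 FPKM in shCtr and at 24.8, 125 and 21.9 FPKM in shZNF148. Replicate 2 thus stood 6.29 times above the mean of its mates in shCtr and 5.35 times above it in shZNF148, while the other 4 samples lay between 20.1 and 24.8 FPKM. The log2 fold change of 0.13 had a 95% interval of -2.03 to 2.29 (adjusted p = 0.933 from limma). Without replicate 2 of both groups, a comparison added after these values were seen, it was 0.21 (adjusted p = 0.168). Its sign turned to -0.30 without shCtr replicate 1, to -0.30 without shCtr replicate 3 and to -0.66 without shZNF148 replicate 2.

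The hairpin of MIR4728 is shown because it shares the row of ERBB2 and is very short beside the ERBB2 mRNA. It has 67 bases, at chr17:39726495-39726561 on the plus strand (RefSeq, GRCh38.p14), and it lies in intron 23 of the canonical ERBB2 transcript, which has 27 exons. The last base of the hairpin is the last base of that intron.
MIR4728 hairpin: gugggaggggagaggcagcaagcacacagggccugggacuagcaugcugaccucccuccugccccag

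Rows that join a microRNA gene with another gene were counted to see whether such jumps occur elsewhere. Of 99 tested rows of this kind with values above 0 in all samples, 19 had a highest value of at least 3 times the lowest, which is 19.2%. Among the other 11505 rows above 0, which include rows that join genes other than microRNA genes, the share was 5.49%. The median ratio of highest to lowest value was 1.44 in the joined rows and 1.43 in the others. A replicate 2 at least 3 times above its mates in both groups was seen in 1 of the 99 joined rows, that of ERBB2, and in 3 of the others. The part of the microRNA in the ERBB2 value was not tested, and how the authors' tools divided reads in such a row is not given in the sources used here.

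Among the ligands, EREG (epiregulin), which binds EGFR and ERBB4, lies on chromosome 4 from 74365145 to 74388749. It was at 6.28, 10.7 and 6.67 FPKM in shCtr and at 14.2, 18.8 and 13.8 FPKM in shZNF148. Replicate 2 was the highest in both groups, and the lowest shZNF148 sample lay above the highest shCtr sample. The group means were 7.87 ± 2.42 and 15.6 ± 2.80 FPKM (SD, n = 3 each), and their ratio was 1.98. The log2 fold change was 0.92 (standard error 0.21, 95% interval 0.43 to 1.41, adjusted p = 0.0356 from limma, exact permutation p = 0.1). The adjusted p was 0.129 without shCtr replicate 1 and 0.125 without shCtr replicate 3. It was 0.0807, 0.0626 and 0.0594 without shZNF148 replicate 1, 2 and 3, while the log2 fold change stayed at 0.79 or above. The call was kept without shCtr replicate 2 (adjusted p = 0.0425). It also missed the threshold when all rows above 0 were tested (adjusted p = 0.0556).

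HBEGF, the heparin-binding ligand of EGFR and ERBB4, lies on chromosome 5 from 140332843 to 140346603 and was the most abundant ligand. It was at 44.2, 49.1 and 42.8 FPKM in shCtr and at 58.6, 56.7 and 56.0 FPKM in shZNF148. The knockdown samples were tightly grouped and all lay above the controls. The group means were 45.4 ± 3.28 and 57.1 ± 1.34 FPKM (SD, n = 3 each), and their ratio was 1.26. The log2 fold change of 0.33 (standard error 0.07, 95% interval 0.16 to 0.49) had an adjusted p of 0.0324 from limma, and its interval ends below the 1.5-fold limit. The adjusted p was over 0.05 without shCtr replicate 1 (0.122), 2 (0.0526) or 3 (0.112) and without shZNF148 replicate 1 (0.0851) or 3 (0.0574).

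TGFA, the transforming growth factor alpha that binds EGFR alone, lies on chromosome 2 from 70447284 to 70554193. It was at 21.7, 20.9 and 22.2 FPKM in shCtr and at 18.8, 22.2 and 16.9 FPKM in shZNF148. NRG1 (neuregulin 1), the ligand of ERBB3 and ERBB4, lies on chromosome 8 from 31639222 to 32855666. It was at 20.0, 17.7 and 20.6 FPKM in shCtr and at 18.6, 14.7 and 19.0 FPKM in shZNF148. The groups overlapped for both ligands. Their log2 fold changes of -0.16 and -0.16 had 95% intervals of -0.41 to 0.08 and of -0.43 to 0.12 (adjusted p = 0.308 and 0.371 from limma), so decreases of up to 0.41 and 0.43 on this scale lie within the error.

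The remaining ligands were scarce. BTC (betacellulin), which binds EGFR and ERBB4, lies on chromosome 4 from 74744759 to 74794523. It was at 0.701, 0.828 and 0.857 FPKM in shCtr and at 1.06, 1.26 and 0.995 FPKM in shZNF148. All shZNF148 samples were above all shCtr samples, but the mean over the 6 samples was just under the limit for testing. With all rows above 0 tested, the log2 fold change of BTC was 0.23 and its adjusted p 0.139. AREG (amphiregulin), a ligand of EGFR whose gene lies near EREG and BTC on chromosome 4 from 74445136 to 74455005, was at 0.650, 0.697 and 0.824 FPKM in shCtr and at 0.576, 1.36 and 0.404 FPKM in shZNF148. The shZNF148 samples of AREG lay on both sides of the controls, with replicate 2 the highest of all. AREG also had a second row that was listed at 0 in all samples, and older genome builds hold a near-identical copy of this gene, so its level is uncertain. Of the ligands that are not among the 10 genes, EGF was at 1.45, 1.25 and 1.59 FPKM in shCtr and at 1.78, 1.79 and 1.54 FPKM in shZNF148 (log2 fold change 0.15, adjusted p = 0.400 from limma). EPGN, NRG2 and NRG4 never exceeded 0.203 FPKM, and NRG3 was listed at 0 throughout.

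ERRFI1, the feedback inhibitor, lies on chromosome 1 from 8004404 to 8026309 and had the highest level of the 10 genes. It was at 236, 212 and 219 FPKM in shCtr and at 168, 178 and 174 FPKM in shZNF148. The lowest control sample lay well above the highest knockdown sample. The mean fell from 223 ± 12.4 to 173 ± 5.14 FPKM (SD, n = 3 each), to 77.9% of the control. The log2 fold change was -0.36 (standard error 0.06, 95% interval -0.51 to -0.21, adjusted p = 0.0223 from limma, exact permutation p = 0.1). The adjusted p was over 0.05 without shCtr replicate 1 (0.0957), 2 (0.0582) or 3 (0.0925) and without shZNF148 replicate 1 (0.0641).

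**Figure D2:**
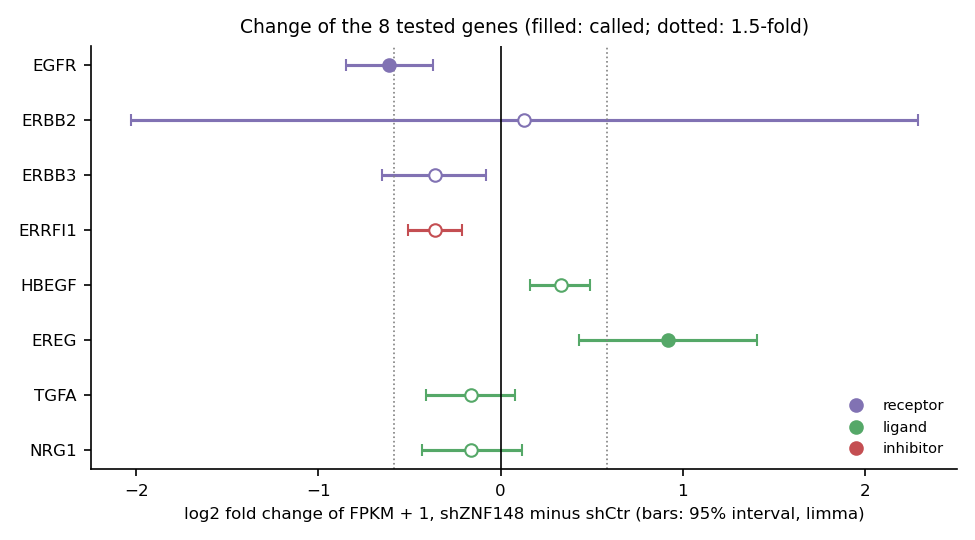
Log2 fold change of FPKM + 1, shZNF148 minus shCtr, for the 8 tested genes, with 95% intervals from limma and colours for receptors, ligands and the inhibitor; filled points were called and dotted lines mark a change of 1.5-fold. EGFR at -0.61 and EREG at 0.92 are the called genes, and the interval of ERBB2 runs from -2.03 to 2.29.

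Receptors and ligands are set side by side here. The log2 fold changes of EGFR, ERBB3 and the joined row of ERBB2 were -0.61, -0.36 and 0.13, with a median of -0.36. Those of EREG, HBEGF, TGFA and NRG1 were 0.92, 0.33, -0.16 and -0.16, with a median of 0.08. The median of all tested rows was 0.01. No test was made over these few genes, since they were chosen with earlier results known, and within the ligands the direction was not shared.

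The order of EGFR and its most abundant ligand turned over between the groups. The FPKM of EGFR was 1.43, 1.48 and 1.5 times that of HBEGF in shCtr replicates 1, 2 and 3, and 0.815, 0.670 and 0.796 times in shZNF148. Relative to EREG it was 10.1, 6.80 and 9.61 times in shCtr and 3.37, 2.02 and 3.24 times in shZNF148. EGFR was thus above HBEGF in every control sample and below it in every knockdown sample. Neither ratio overlapped between the groups. This had to be so, since EGFR lay lower and both ligands lay higher in every shZNF148 sample, and it is not a separate result.

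The 6 ligands added up to 93.6, 99.8 and 94.0 FPKM in shCtr and to 112, 115 and 107 FPKM in shZNF148. HBEGF made up 45.5% to 49.1% of this sum in shCtr and 49.3% to 52.4% in shZNF148. EREG made up 6.71%, 10.7% and 7.10% in shCtr and 12.7%, 16.3% and 12.9% in shZNF148. The share of TGFA was 20.9% to 23.6% in shCtr and 15.8% to 19.3% in shZNF148. That of NRG1 was 17.8% to 21.9% in shCtr and 12.8% to 17.7% in shZNF148. The groups did not overlap in these shares, although they overlapped in the FPKM of TGFA and NRG1. All shares come from the same sum, and HBEGF and EREG lay higher in every shZNF148 sample. This by itself lowers the shares of TGFA and NRG1, so the lower shares do not show a change of these genes. BTC made up at most 1.09% and AREG at most 1.18%. EGFR was 0.675 to 0.725 of the ligand sum in shCtr and 0.331 to 0.427 in shZNF148. This ratio had to separate the groups, since EGFR lay lower and the sum higher in every shZNF148 sample.

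In order of level, shCtr ran from ERRFI1 through EGFR, HBEGF, TGFA, NRG1, EREG and ERBB3 to BTC and AREG, leaving out the joined row of ERBB2. In that group the ranges of BTC and AREG overlapped and the others did not. In shZNF148, HBEGF came before EGFR, and the ranges of TGFA, NRG1 and EREG overlapped, with EREG at 13.8 to 18.8 FPKM beside NRG1 at 14.7 to 19.0 FPKM. BTC and AREG overlapped there too.

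Genes that act with these receptors were taken from 6 lists written from knowledge of the pathway, with 110 genes of which 103 were tested. Of these, 2 were called higher (1.94%) and 8 lower (7.77%), beside 1.83% and 3.66% of all tested rows. Their median log2 fold change was 0.02. Leaving out shCtr replicate 1 or shCtr replicate 3 left 0 of the 10 calls in limma, although all 10, which had been chosen as called, kept their direction and an unadjusted p under 0.05. At that unadjusted threshold 24.4% and 25.3% of all tested rows passed without these samples. Without shCtr replicate 2, 6 of the 10 were called, and without shZNF148 replicate 1, 2 or 3 the number was 3, 8 or 7.

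Of 11 tested genes of ligand release, 1 was called higher and 1 lower, beside 1.83% and 3.66% of all tested rows. TIMP3, the inhibitor of the ligand-cutting protease ADAM17, rose from 60.3, 63.2 and 56.8 FPKM in shCtr to 128, 166 and 115 FPKM in shZNF148 (log2 fold change 1.15, standard error 0.14, adjusted p = 0.0108 from limma). All knockdown samples of TIMP3 were above the controls by a wide margin. ADAM9, another membrane metalloprotease, fell from 156, 162 and 169 FPKM to 91.8, 55.1 and 91.6 FPKM, with replicate 2 the lowest (log2 fold change -1.06, standard error 0.19, adjusted p = 0.0233 from limma). ADAM17 itself, named here after its values were seen, had group means of 23.5 ± 0.282 and 21.0 ± 1.38 FPKM (SD, n = 3 each), and its log2 fold change of -0.16 did not pass (adjusted p = 0.159 from limma).

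Of 7 membrane proteins known to bind EGF-family ligands or receptors, 2 were called by limma, both lower, beside 3.66% of all tested rows. The tetraspanin CD9, which associates with the membrane form of HBEGF, fell from 133, 122 and 125 FPKM to 76.8, 80.1 and 88.9 FPKM (log2 fold change -0.62, adjusted p = 0.0108). SDC1, a heparan sulfate proteoglycan that can hold heparin-binding ligands at the surface, fell from 38.4, 39.4 and 33.8 FPKM to 20.5, 16.6 and 20.0 FPKM (log2 fold change -0.93, adjusted p = 0.0099). Neither gene overlapped between the groups, and 21.0% of all tested rows lay below in this way.

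Of 29 tested genes on the list for receptor down-regulation, 1 was called higher (3.45%) and 1 lower (3.45%). Among all tested rows these shares were 1.83% and 3.66%. LRIG1, a membrane protein that promotes the loss of ErbB receptors, fell from 19.7, 22.1 and 17.8 FPKM to 9.85, 5.87 and 10.1 FPKM (log2 fold change -1.15, standard error 0.20, adjusted p = 0.0209 from limma). SPRY1, a Sprouty inhibitor of receptor kinase to MAP kinase signalling, rose from 3.82, 4.65 and 4.33 FPKM to 7.05, 7.61 and 7.24 FPKM (log2 fold change 0.66, standard error 0.09, adjusted p = 0.0146). With ERRFI1 lower as well, these inhibitors did not share a direction.

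Of 20 tested adaptors and enzymes recruited by the receptors, PIK3CA alone was called, and lower, beside 3.66% of all tested rows called lower. This catalytic subunit of phosphoinositide 3-kinase, part of whose sequence has a near-identical copy elsewhere in the genome, fell from 10.2, 9.52 and 9.44 FPKM to 6.84, 4.58 and 6.60 FPKM (log2 fold change -0.63, standard error 0.14, adjusted p = 0.0362 from limma). PIK3CA kept its call in 7 of 17 alternatives, the fewest of the called pathway genes together with ATF3, which kept it in 7 of 16. Of 17 genes in the RAS, MAP kinase and AKT core, 0 were called by limma, 2 passed the adjusted p, both higher, and with an unadjusted p under 0.05 there were 5 higher and 1 lower. Over all tested rows 1.83% were called higher and 3.66% lower. With the adjusted p alone 5.46% were higher. At the unadjusted threshold 16.0% were higher and 17.8% lower.

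Of 19 tested transcripts that this signalling is known to induce, 3 were called by limma, all lower, beside 3.66% of all tested rows. The list median was -0.22. DUSP6, a phosphatase of ERK, was at 54.2, 35.0 and 51.8 FPKM in shCtr and at 28.8, 25.4 and 29.1 FPKM in shZNF148, with shCtr replicate 2 nearest to the knockdown samples (log2 fold change -0.72, adjusted p = 0.0394). DUSP1, a phosphatase of several MAP kinases, fell from 8.87, 6.45 and 9.25 FPKM to 4.03, 4.19 and 4.20 FPKM (log2 fold change -0.82, adjusted p = 0.0195). ATF3, a stress-induced transcription factor, fell from 5.78, 6.38 and 4.65 FPKM to 3.05, 4.06 and 2.81 FPKM (log2 fold change -0.62, adjusted p = 0.0441). With the adjusted p alone, 6 of the 19 were lower and 1 was higher, beside 8.13% and 5.46% of all tested rows. The higher gene was CCND1, which encodes cyclin D1, at 104, 126 and 113 FPKM in shCtr and at 165, 184 and 167 FPKM in shZNF148 (adjusted p = 0.0169 from limma).

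**Figure D3:**
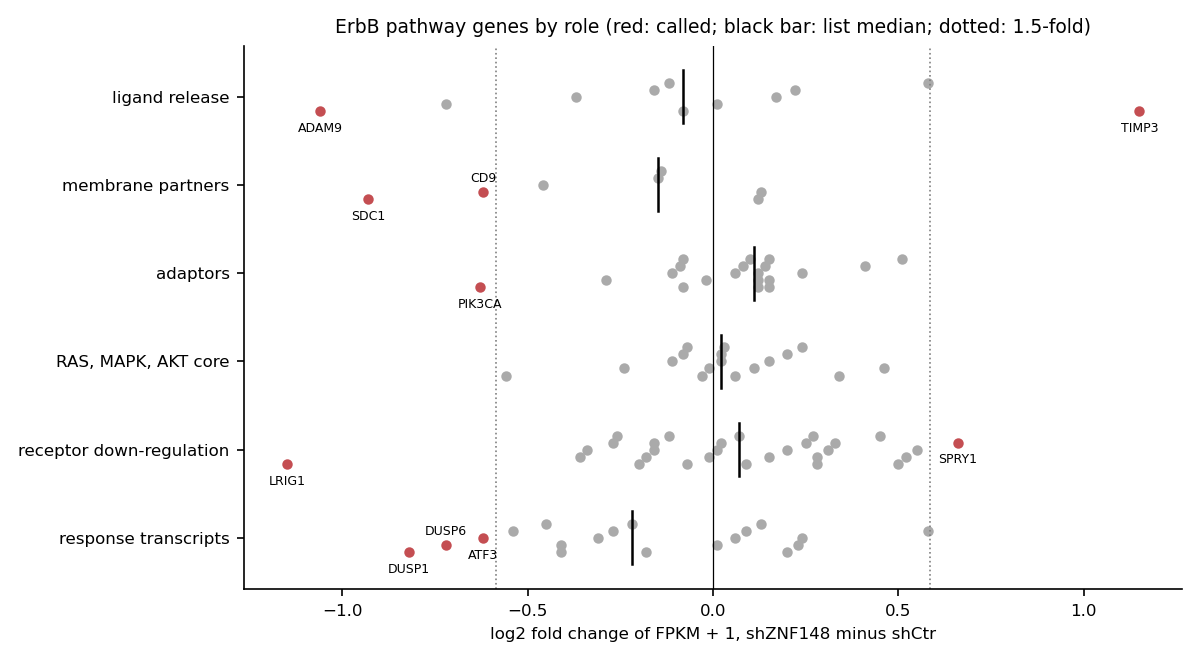
Log2 fold change of FPKM + 1, shZNF148 minus shCtr, of the tested genes in 6 lists of ErbB pathway genes (11, 7, 20, 17, 29 and 19 genes from top to bottom), with called genes in red and named, a black bar at each list's median and dotted lines at 1.5-fold. The list of response transcripts has the lowest median, -0.22, and the called genes lie on the lower side except TIMP3 and SPRY1.

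The rows whose pattern over the 6 samples was most like that of EGFR were C6orf132, PPP1R15B and DAP, with Pearson correlations of 0.999, 0.998 and 0.998 on the log2 scale. For HBEGF they were LETM1, URB2 and SPECC1L, with correlations of 0.996, 0.996 and 0.995. These 6 samples share the 2 groups, and 3.87% of tested rows reached 0.95 with EGFR and 1.40% with HBEGF. C6orf132 fell from 7.80 ± 0.709 to 4.07 ± 0.710 FPKM (SD, n = 3 each) and was called (log2 fold change -0.80, adjusted p = 0.0188 from limma). PPP1R15B and DAP fell by 0.34 and 0.44 on the log2 scale, below the 1.5-fold limit (adjusted p = 0.0405 and 0.0233 from limma).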

How the data were processed

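The RNA-seq samples of MDA-MB-231 were grouped by their titles into 3 shCtr and 3 shZNF148. The authors deposited 1 table of FPKM values, and 0 of its sample columns were left unused. The submitters' processing notes name bcl2fastq 2.17.1.14, TopHat2 2.0.14, Cufflinks 2.2.1 and Cuffnorm 2.2.1 with the builds hg18 and hg19, whereas the paper's methods name Salmon on GRCh38 and DESeq2. Which of them gave these values, and with which annotation and scaling, is not given in the sources used here. Read numbers are unknown, so no count test was run.

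Rows of a gene were those whose name, split at commas, held its symbol, and of several rows the one highest on average was taken. Rows averaging 1 FPKM or more were fitted on log2(FPKM + 1) by condition with limma 3.58.1 (R 4.3.3) and a mean-variance trend, and adjusted by the Benjamini-Hochberg method over all of them. The fold change understates that of low genes. The fit was also run on simulated data with a capped spread and with changes larger than those of the listed genes. That run therefore does not test calls of changes as small as theirs. Alternatives changed the filter, pseudocount, scaling, variance model, replicate block, repeated rows and left-out replicates (16 planned and 1, without replicate 2 of both groups, added after the values were seen). The genes named are the 10 listed genes, ZNF148, the other EGF-family ligands and ERBB4, every called gene of the pathway lists, the 3 rows most like EGFR and HBEGF, and line markers. Genes outside this rule (ADAM17, CCND1 and those in the last section) were chosen after their values were seen. The genes and lists were chosen with earlier results of these data known. Coordinates are from GENCODE release 44 on GRCh38, and sequences from RefSeq on GRCh38.p14. Python 3.11.15 was used for the other steps.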

Additional observations from a re-analysis of the deposited data

How the results depend on the processing

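Without the filter, 0 genes of the family were called higher (6 of 10 had an unadjusted p under 0.05 in limma, as had 27.0% of all rows). The number called lower was 0 with a pseudocount of 5 FPKM, with quantile normalization and without replicate 2 of both groups (5 of 8 with an unadjusted p under 0.05 in each, as had 33.4% to 33.8% of all rows), against 1 in the main comparison. Over all rows, 216 were called higher and 431 lower, against 76 and 204 with a pseudocount of 5 FPKM. Leaving out single replicates, the rows called higher ran from 3 (without shCtr replicate 1 or 3) to 209 and those called lower from 19 (without shCtr replicate 3) to 393. The called genes of the family ran from 0 to 1 in each direction, with 4 to 6 of 8 at an unadjusted p under 0.05 in limma, beside 24.4% to 34.0% of all rows. The value of the joined ERBB2 row reversed to -0.30, -0.30 and -0.66 without shCtr replicate 1, shCtr replicate 3 and shZNF148 replicate 2. The cause was not tested. Of 135 values of the family under the alternatives, 118 kept their direction and side of the call, 14 lost the call and 3 reversed. The median of the receptors lay between -0.52 and -0.17 and that of the ligands between 0.08 and 0.14 under the alternatives run.

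In the fit with replicate as a block, 99 rows were called higher and 216 lower, 0 genes of the family were called lower and 1, EREG (adjusted p = 0.0415), higher, while the adjusted p was 0.0619 for EGFR, 0.0724 for HBEGF and 0.0671 for ERRFI1. This left 1 of 8 with an adjusted p under 0.05 (5 of 8 with an unadjusted one, as had 30.2% of all rows). Of the 10 called pathway genes 7 were called, without PIK3CA (0.0622), LRIG1 (0.0589) and ATF3 (0.0557). The numbers are not known to pair the samples. Deviations of same-numbered samples correlated at 0.001, -0.088 and 0.030 over the tested rows, and not every sample correlated best with its own number. The precision of low values, such as those of AREG and BTC, is unknown, since read numbers are.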

Other observations

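The following genes were picked from the pathway lists after their values were seen. ErbB receptors recruit phosphoinositide 3-kinase through ERBB3 or adaptors. Of its catalytic subunits on the list, PIK3CA was lower (log2 fold change -0.63) and PIK3CB did not pass (0.15, adjusted p = 0.281 from limma). The regulatory PIK3R1 was at 1.52, 1.45 and 1.85 FPKM in shCtr and at 2.43, 3.03 and 2.66 FPKM in shZNF148 (log2 fold change 0.51, adjusted p = 0.0415 from limma). PIK3R2 rose from 31.1 ± 2.11 to 41.9 ± 5.70 FPKM (SD, n = 3 each; adjusted p = 0.0499 from limma). PIK3R3 was at 0.509 ± 0.0544 and 1.21 ± 0.225 FPKM (SD, n = 3 each) and was too low for the main comparison. With all rows above 0 tested, its log2 fold change was 0.55 and its adjusted p 0.0310 from limma. The adjusted p reached 0.132 for PIK3R1 and 0.158 for PIK3R2 among the alternatives.

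The receptor-type phosphatases PTPRJ and PTPRK, both known to act on EGFR, had log2 fold changes of 0.55 and 0.52 (limma adjusted p = 0.0118 and 0.0258), below the 1.5-fold limit. Of the proteins that carry ADAM17 to the surface, RHBDF2 (iRhom2) fell from 35.7 ± 1.25 to 27.5 ± 2.12 FPKM (SD, n = 3 each) and FRMD8, which stabilizes the iRhoms, rose from between 7.39 and 8.34 FPKM to between 11.7 and 13.6 FPKM (limma adjusted p = 0.0301 and 0.0172). RHBDF1, the other iRhom, did not pass (log2 fold change -0.12, adjusted p = 0.507 from limma). Among the alternatives the adjusted p reached 0.119 for RHBDF2, 0.0895 for FRMD8, 0.0745 for PTPRJ and 0.0972 for PTPRK.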
